A study of Mus musculus with 6 samples.

Results

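Cytochrome P450 genes were examined in colorectal tumors of mice that differed in epithelial p53. The family was taken from the gene names of the deposited table, as every name made of Cyp, a family number, subfamily letters and a gene number, without Cyp24a1 and Cyp27b1. This gave 93 of the 54167 genes in the table. The rule left out 40 other names that start with Cyp and a digit, such as Cyp51 and the pseudogenes, and names that end in a letter. RNA was sequenced from 6 tumor samples, 3 from Trp53fl/fl mice and 3 from VP mice, on a C57BL/6J background. Trp53fl/fl mice carry Trp53 alleles flanked by loxP sites and no Cre, so their p53 is intact, and in VP mice Cre driven by the villin promoter deletes Trp53 in intestinal epithelial cells only. Both genotypes were given 10 mg/kg azoxymethane (AOM), a carcinogen, from 8 weeks of age and then 3 cycles of 7 days of 2.5% dextran sulfate sodium (DSS), which injures the colon lining, and tumors were dissected on day 98. No tumor with villin-Cre and intact Trp53 was analysed here, so the Cre transgene and the loss of Trp53 cannot be told apart. The tumors of a genotype are separate samples, and the p-values measure the spread between them only.

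P450 enzymes are heme proteins that insert 1 atom of oxygen into fatty acids, sterols, retinoids, drugs and carcinogens. Most sit in the endoplasmic reticulum and take electrons from P450 reductase (Por), and a few, such as Cyp27a1 and Cyp11a1, sit in mitochondria and take them from ferredoxin. Liver holds the highest amounts of the drug-metabolizing families, whereas gut epithelium has its own, narrower set that meets dietary and bacterial compounds first. AOM itself is a substrate of P450 enzymes, Cyp2e1 above all, which turn it into the form that damages DNA.

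The values are in TPM, a share of a tumor's transcripts that is corrected for transcript length, so that levels of different genes can be set side by side. Changes are differences of mean log2(TPM + 1), VP minus Trp53fl/fl, a scale that understates the change of weak genes. The limma test covered the 15117 genes that reached 1 TPM in 3 or more tumors, and its p-values were adjusted by Benjamini-Hochberg over all of them. As a check of the labels, Trp53 was read first. Its 3 values were 124.94, 99.30 and 147.45 TPM with intact p53 and 38.45, 32.79 and 27.83 TPM in VP tumors. It fell by 1.87 on the log2 scale (SE 0.18, limma adjusted p = 0.0207). In whole tumors, fewer cells of a type and less RNA per cell cannot be told apart.

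Several markers bear on the samples as a whole. The methods describe the mice as male, whereas Xist was at 103.89, 138.74 and 79.95 TPM in Trp53fl/fl tumors and at 67.43, 53.89 and 47.72 TPM in VP tumors. Xist was thus lower in every VP tumor (log2 fold change -0.90, limma unadjusted p = 0.00443, adjusted p = 0.269). Ddx3y was at 0 in each of the 6 tumors, and the other Y-linked genes of the list reached at most 0.21 TPM. The summed TPM of 12 epithelial markers ran from 10628 to 10954 in Trp53fl/fl tumors and from 12069 to 13063 in VP tumors, without overlap. Of the 12, 3 were higher in VP tumors at an unadjusted p under 0.05, where 4.51% of all genes were (limma). These 3 were Krt19, Cldn7 and Lgals4. The values of the other epithelial markers overlapped, among them Epcam (log2 fold change 0.003) and Cdh1 (0.02). The summed TPM of 5 neutrophil markers ran from 254 to 597 and from 1046 to 1796, and these sums did not overlap either. Of the 5, 4 were higher in VP tumors at an unadjusted p under 0.05, where 4.51% of all genes were (limma). The sums of the mature colonocyte, fibroblast, smooth muscle, macrophage, endothelial and distal colon lists overlapped between genotypes. At an unadjusted p under 0.05, however, Pdgfra, Lum and Car1 were lower in VP tumors, where 8% of all genes were (limma). Cd68 and Vwf were higher at that p, where 4.51% of all genes were. None of these passed the adjustment, and the other tested genes of these lists overlapped. Hoxd13 ran from 0.75 to 60.91 TPM and was highest in replicate 3 of each genotype. Of 6 hepatocyte markers, Alb was at 11.05 to 54.60 TPM and Ttr at 21.48 to 62.27 TPM in these tumors. Ttr was higher in every VP tumor than in any Trp53fl/fl tumor (limma unadjusted p = 0.0122, adjusted p = 0.316), and Alb overlapped. Fgb, Apoh, Ahsg and Serpina1a reached at most 0.10, 1.08, 1.47 and 2.79 TPM and did not pass the filter. The part of these markers in the results on P450 genes was not tested.

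P450 transcripts were carried by a small set of genes that was much the same in both genotypes. Of the 93 genes, 31 passed the filter and were tested, 39 were detected below it and 23 were at 0 TPM in all 6 tumors. None of the 31 had reached 1 TPM in 1 genotype only. Summed over the family, P450 transcripts came to 263.34, 338.62 and 303.46 TPM in Trp53fl/fl tumors and to 343.19, 323.53 and 303.76 TPM in VP tumors, or 302 ± 37.7 against 323 ± 19.7 TPM (SD, n = 3 each). The genotypes overlapped. Cyp27a1 alone held 13.67% of the summed mean level, the 7 most abundant genes held 60.01% and the 12 most abundant held 76.41%.

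**Figure D1:**
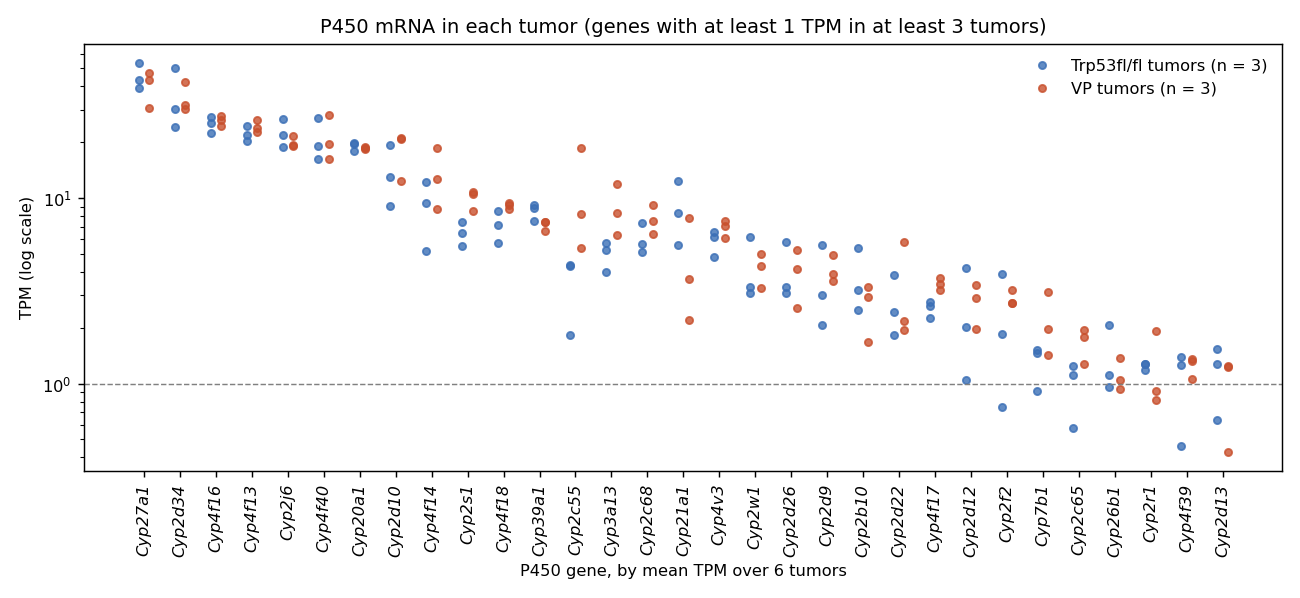
TPM of each P450 gene tested (31 genes, in order of mean level) in every tumor, on a log10 axis of TPM, with Trp53fl/fl and VP tumors in different colors. The 7 genes at the left carry 60.01% of the family's summed mean level, and the points of the genotypes are intermixed for most genes.

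No P450 gene changed between genotypes at an adjusted p under 0.05, against 25 of all 15117 genes tested, or 0.165%, and the smallest adjusted p among the 31 was 0.31 (limma, Benjamini-Hochberg). At an unadjusted p under 0.05, 3 of the 31 were higher in VP tumors, where 4.51% of all genes were, and 0 were lower, where 8% of all genes were (limma). These 3 genes were Cyp2s1, Cyp2c55 and Cyp3a13. In 6 genes every VP tumor lay above every Trp53fl/fl tumor, where 6.03% of all genes did so, and in 1 gene every VP tumor lay below, where 13.3% of all genes did so. The 6 genes were Cyp2c55, Cyp3a13, Cyp2s1, Cyp2c65, Cyp4f17 and Cyp4f18, and the gene below was Cyp39a1. A positive log2 fold change was found for 21 of the 31 P450 genes and for 39.2% of all genes. The median log2 fold change was 0.15 for the P450 genes and -0.07 for all genes tested.

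The sign of the family's median depended on 1 tumor and on the scaling. Without Trp53fl/fl replicate 1, 14 of the 31 genes were positive, where 39.4% of all genes were, and the medians were -0.01 for the P450 genes and -0.07 for all genes. Centring each tumor on its epithelial markers lowers the log2 fold change of every gene by the same amount. With it 14 of the 31 were positive, where 17.8% of all genes were, and the medians were -0.03 and -0.25. With median-of-ratios rescaling, 23 of the 31 were positive, where 50.1% of all genes were. The log2 fold change was within 0.25 of 0 for 18 of the 31 genes, and the median SE of the P450 genes was 0.25, against 0.18 for all genes tested.

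**Figure D2:**
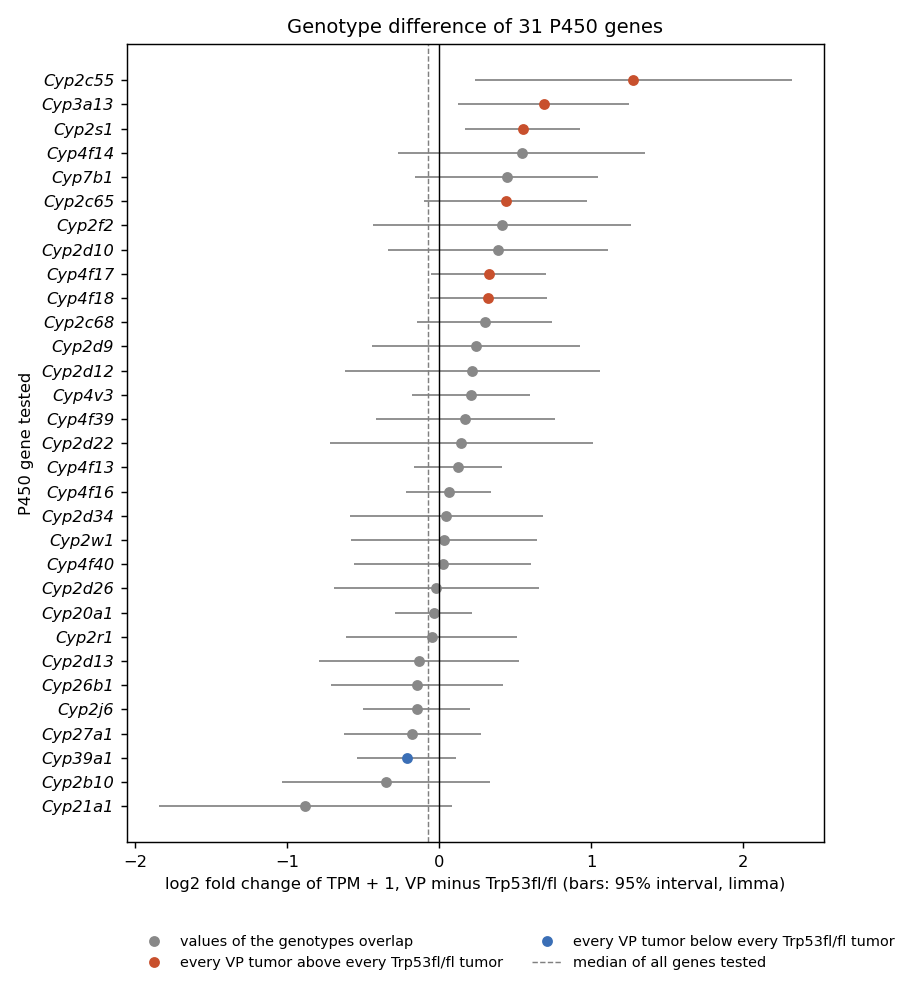
Log2 fold change of TPM + 1, VP minus Trp53fl/fl, for the 31 P450 genes tested, with the 95% interval from limma as bars and the median of all genes tested as a dashed line. Colored points mark genes whose genotypes do not overlap, and the intervals of Cyp2c55, Cyp3a13 and Cyp2s1 lie above 0.

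Family 1 enzymes oxidize polycyclic aromatic compounds and are the classical targets of the aryl hydrocarbon receptor. None of its 3 genes passed the filter. Cyp1a1, which gut epithelium makes on exposure to receptor ligands, reached at most 0.15 TPM, Cyp1a2 at most 0.03 TPM and Cyp1b1 at most 0.61 TPM.

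Family 2 is the largest, with 50 genes, of which 16 were tested and 14 were at 0 TPM in every tumor. Its members oxidize xenobiotics, and several turn arachidonic acid into epoxides. Cyp2s1, an extrahepatic enzyme of epithelia, was at 5.55, 6.52 and 7.39 TPM in Trp53fl/fl tumors and at 8.57, 10.77 and 10.51 TPM in VP tumors. All VP tumors lay above all Trp53fl/fl tumors, with a narrow spread in each genotype. The log2 fold change was 0.55 (SE 0.16, 95% interval 0.17 to 0.93) and did not pass the adjustment (limma unadjusted p = 0.0105, adjusted p = 0.31). It was 0.46 to 0.64 when any 1 tumor was left out, each time with an unadjusted p under 0.05. Centred on epithelial markers, it was 0.37 with an unadjusted p of 0.0711 (limma).

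Cyp2c55 encodes an arachidonic and linoleic acid oxidizing enzyme that is abundant in mouse colon. It was at 4.36, 1.84 and 4.30 TPM in Trp53fl/fl tumors and at 8.21, 18.62 and 5.38 TPM in VP tumors. The genotypes did not overlap, but VP replicate 2 stood far above the other tumors and VP replicate 3 was near the highest Trp53fl/fl tumor. Its log2 fold change of 1.28 was the largest of the 31 genes (SE 0.44, 95% interval 0.24 to 2.32, limma unadjusted p = 0.0228, adjusted p = 0.341). It was 0.83 without VP replicate 2 (limma unadjusted p = 0.0527) and 0.98 without Trp53fl/fl replicate 2 (limma unadjusted p = 0.0778).

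Other genes of the Cyp2c group that were tested were Cyp2c68 and Cyp2c65. Cyp2c68 was at 5.14, 5.69 and 7.36 TPM and at 7.56, 6.38 and 9.16 TPM in the same order, with overlap. Cyp2c65, the neighbor of Cyp2c55, was at 1.12, 1.24 and 0.58 TPM and at 1.95, 1.79 and 1.27 TPM, without overlap. Its log2 fold change of 0.44 had an unadjusted p of 0.0934 and an adjusted p of 0.459 (limma). Cyp2c40 was at 0.35 to 2.28 TPM and did not pass the filter. The Cyp2c genes lie side by side on chromosome 19, where 14 of the 15 fall between 39007019 and 40187333 (GENCODE M21, GRCm38). Of these 14, 3 were tested, and the neighbors between them, such as Cyp2c29, Cyp2c38 and Cyp2c39, were at or near 0 TPM. Summed over the subfamily, Cyp2c transcripts came to 11.68, 11.25 and 13.09 TPM in Trp53fl/fl tumors and to 18.72, 27.56 and 16.70 TPM in VP tumors. The sums did not overlap, and their difference of 8.99 TPM was 5.70 TPM without VP replicate 2.

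**Figure D3:**
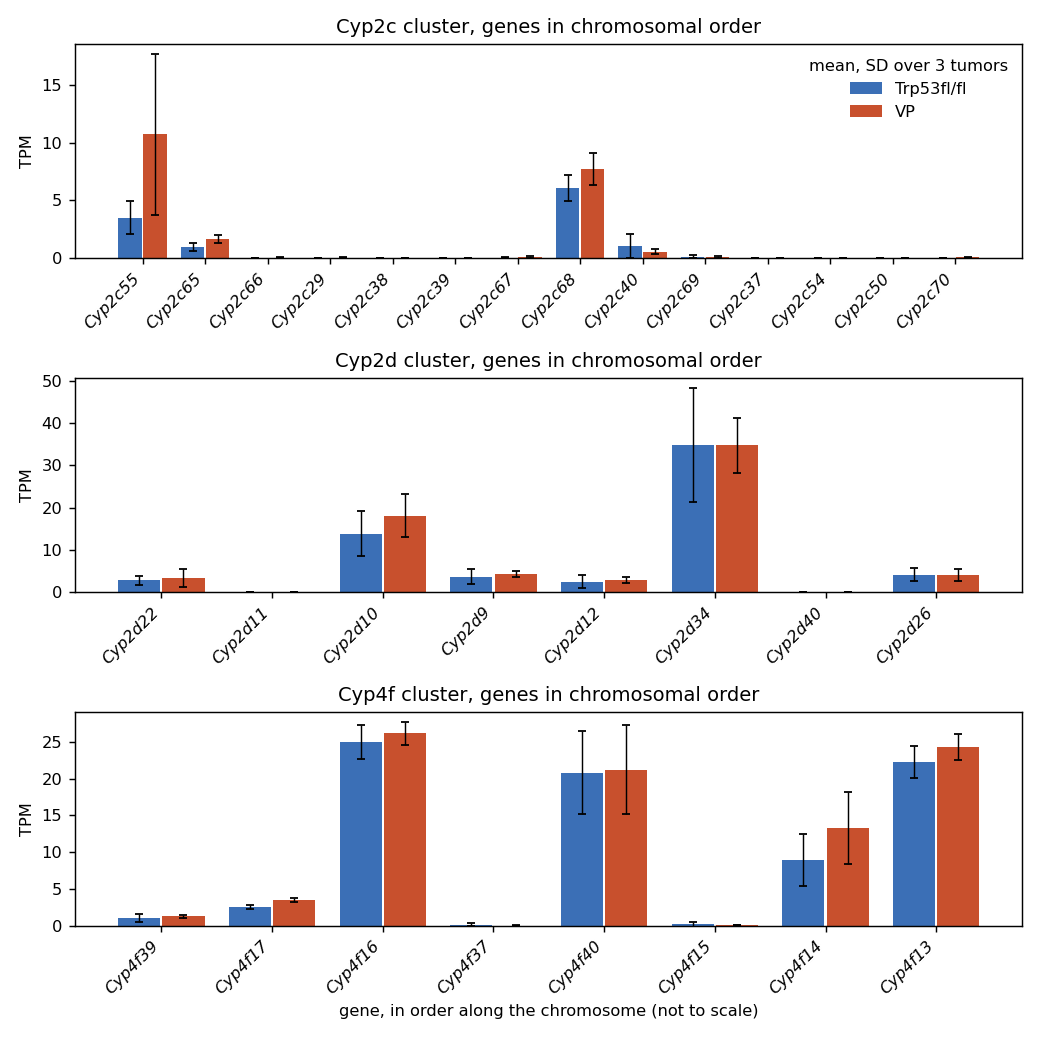
Mean TPM (bars) and SD (error bars, cut at 0, n = 3 tumors) of the genes of the Cyp2c, Cyp2d and Cyp4f clusters in genomic order, for Trp53fl/fl and VP tumors. Cyp2c55 and Cyp2c68 carry most of the Cyp2c signal and Cyp2d34 and Cyp2d10 most of the Cyp2d signal, while several neighbors are at or near 0 TPM.

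Cyp2d enzymes hydroxylate basic amines in the liver and gut. Of 9 genes, 7 were tested, and 8 of the 9 lie on chromosome 15 between 82370527 and 82794294 (GENCODE M21, GRCm38). Cyp2d34 was at 24.08, 50.07 and 30.32 TPM in Trp53fl/fl tumors and at 42.33, 31.85 and 30.23 TPM in VP tumors (log2 fold change 0.05, SE 0.27, limma adjusted p = 0.952). Cyp2d10 was at 13.00, 9.03 and 19.45 TPM and at 20.81, 21.19 and 12.30 TPM (log2 fold change 0.39, SE 0.31, limma adjusted p = 0.61). Both genes overlapped between the genotypes, and the means of Cyp2d34, 34.8 TPM in each, were far closer than the tumors of 1 genotype. The summed Cyp2d level was 45.98, 75.83 and 65.79 TPM in Trp53fl/fl tumors and 83.78, 65.56 and 54.93 TPM in VP tumors. The mean difference of 5.56 TPM became -2.72 TPM without Trp53fl/fl replicate 1 and -2.29 TPM without VP replicate 1. Means of the other genes in Trp53fl/fl and VP tumors were 4.05 and 3.99 TPM for Cyp2d26, 3.55 and 4.15 TPM for Cyp2d9, 2.70 and 3.31 TPM for Cyp2d22, 2.42 and 2.75 TPM for Cyp2d12, and 1.15 and 0.97 TPM for Cyp2d13.

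Cyp2j6, a fatty acid epoxygenase of the intestine, was at 21.98, 26.53 and 18.82 TPM in Trp53fl/fl tumors and at 19.07, 19.28 and 21.70 TPM in VP tumors, with overlap. Its log2 fold change was -0.15 (SE 0.15, limma adjusted p = 0.689). It was the only tested gene of 8 in the Cyp2j group, of which 4 were at 0 TPM in all tumors and Cyp2j9 ran from 0.46 to 1.08 TPM. Cyp2w1, which is known from fetal gut and colorectal tumors, was at 3.09, 6.16 and 3.33 TPM and at 4.29, 4.98 and 3.29 TPM, with a log2 fold change of 0.03. Cyp2b10, a target of the receptor Nr1i3, had means of 3.69 and 2.64 TPM and a log2 fold change of -0.35, with overlap between genotypes. Cyp2f2, a lung enzyme in the main, was at means of 2.17 and 2.87 TPM, and Cyp2r1, a vitamin D 25-hydroxylase, at 1.24 and 1.22 TPM. Cyp2e1, the AOM-activating enzyme, was at 0.05 to 1.14 TPM and did not pass the filter, and the 4 Cyp2a genes reached at most 0.22 TPM.

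Family 3 enzymes hydroxylate drugs, bile acids and steroids. Cyp3a13, the member of the gut and other tissues outside the liver, was at 4.0, 5.27 and 5.76 TPM in Trp53fl/fl tumors and at 11.97, 8.33 and 6.32 TPM in VP tumors. VP replicate 1 was the highest, and VP replicate 3 lay close above the highest Trp53fl/fl tumor, so that the genotypes did not overlap. The log2 fold change was 0.69 (SE 0.24, 95% interval 0.12 to 1.25, limma unadjusted p = 0.0235, adjusted p = 0.341). It was 0.47 without VP replicate 1 (limma unadjusted p = 0.0704), 0.56 without Trp53fl/fl replicate 1 (limma unadjusted p = 0.0803) and 0.51 with centring on epithelial markers (limma unadjusted p = 0.0624). The other 6 Cyp3a genes were not tested, and Cyp3a11, the main hepatic form, reached at most 0.03 TPM. Cyp3a13 lies apart from them on chromosome 5, between 137892932 and 137921619 (GENCODE M21, GRCm38).

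**Figure D4:**
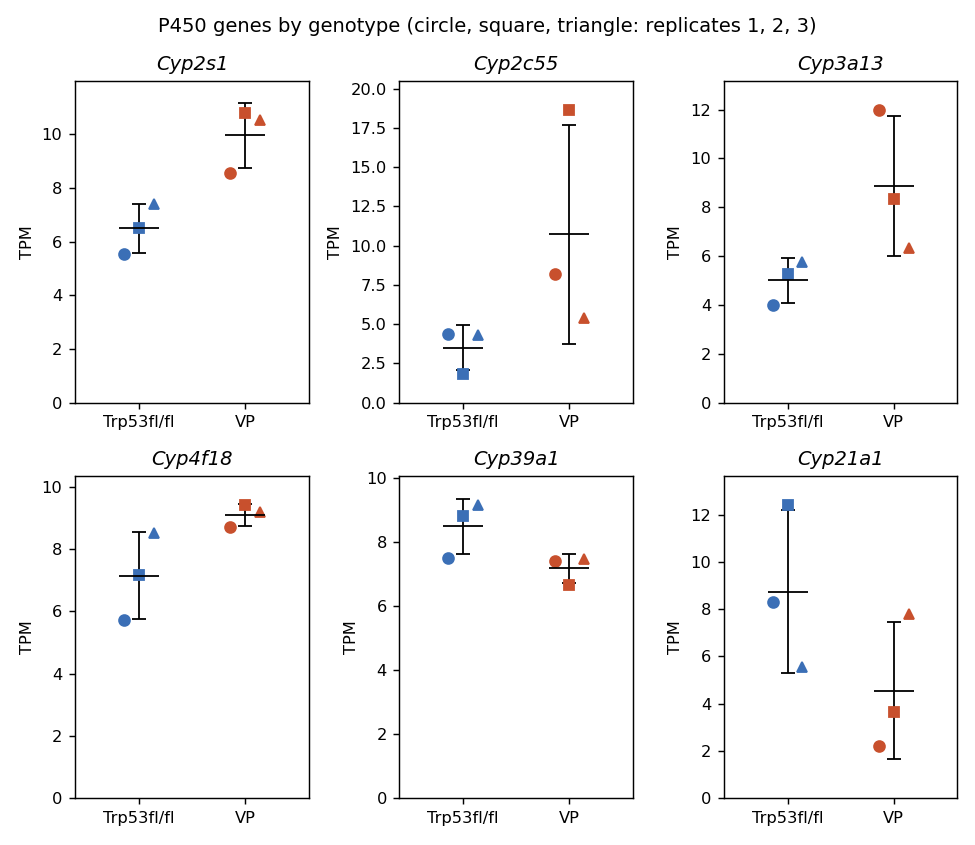
TPM of single P450 genes in each tumor, as points for replicates 1 to 3, with the mean and SD (n = 3) per genotype. In Cyp2s1, Cyp2c55 and Cyp3a13 all VP tumors lie above all Trp53fl/fl tumors, whereas VP replicate 3 lies among the Trp53fl/fl tumors for Cyp21a1.

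The start regions of the 3 genes at an unadjusted p under 0.05 are shown because they differ in composition and in the motifs they hold. Each runs from 250 bases before to 50 bases after the RefSeq start on GRCm38.p6, written 5′ to 3′ on the strand of the gene. Capitals mark a TATA box (TATAAA) and a match to the decamer consensus of a p53 half-site, which is only part of a full p53 site. The Cyp2s1 window is chr7:25816476-25816775 on the minus strand, the Cyp2c55 window is chr19:39006769-39007068 on the plus strand and the Cyp3a13 window is chr5:137921570-137921869 on the minus strand.
Cyp2s1: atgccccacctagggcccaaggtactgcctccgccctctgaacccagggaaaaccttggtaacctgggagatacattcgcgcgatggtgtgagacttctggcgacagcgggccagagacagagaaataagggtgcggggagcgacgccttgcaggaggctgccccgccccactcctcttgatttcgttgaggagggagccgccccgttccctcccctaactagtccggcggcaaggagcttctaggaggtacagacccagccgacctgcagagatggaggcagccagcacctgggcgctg
Cyp2c55: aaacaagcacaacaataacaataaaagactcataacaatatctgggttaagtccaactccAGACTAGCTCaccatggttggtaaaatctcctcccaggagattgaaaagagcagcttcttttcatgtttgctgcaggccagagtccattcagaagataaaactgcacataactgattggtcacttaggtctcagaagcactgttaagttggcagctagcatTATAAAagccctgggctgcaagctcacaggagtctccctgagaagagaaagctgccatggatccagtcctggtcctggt
Cyp3a13: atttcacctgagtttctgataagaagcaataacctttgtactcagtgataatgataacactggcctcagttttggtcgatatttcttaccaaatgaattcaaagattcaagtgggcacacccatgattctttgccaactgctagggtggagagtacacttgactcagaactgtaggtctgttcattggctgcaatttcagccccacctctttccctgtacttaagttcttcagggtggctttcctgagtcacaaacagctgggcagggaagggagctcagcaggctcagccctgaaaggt

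The Cyp2s1 window had 63% G and C and 17 CpG, against medians of 52.7% and 7 over 32851 promoters, and held none of the 4 motifs searched. The Cyp2c55 window had 44.7% G and C and 0 CpG. It held TATAAA from 29 bases before the start and the decamer match AGACTAGCTC from 190 bases before it. The Cyp3a13 window had 45.7% G and C, 1 CpG and no motif. Both strands were searched in 23 of the 31 tested genes that had a RefSeq window. The aryl hydrocarbon receptor core GCGTG was in a promoter of 9 of the 23 and of 35.2% of all 27025 genes. The nuclear receptor half-site AGGTCA was in 1 and in 18.1%, TATAAA was in 6 and in 15.7%, and the p53 half-site decamer was in 2 and in 9.55%. Over single promoters the 4 shares were 32.4%, 16.3%, 13.6% and 8.36%. These are matches of letters in the windows and not sites of binding.

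Family 4 enzymes hydroxylate fatty acids and eicosanoids at the far end of the chain, which inactivates leukotrienes among others. Of its 17 genes, 8 were tested, 7 of them Cyp4f genes, and 4 of the 5 Cyp4a genes were at 0 TPM in all tumors. Cyp4f16 was at 25.35, 22.55 and 27.21 TPM in Trp53fl/fl tumors and at 24.48, 27.55 and 26.50 TPM in VP tumors. Cyp4f13 was at 21.99, 24.61 and 20.25 TPM and at 26.24, 22.84 and 23.93 TPM. Cyp4f40 was at 19.19, 27.11 and 16.23 TPM and at 16.20, 27.91 and 19.64 TPM. These 3 genes overlapped between genotypes, with log2 fold changes of 0.06 (SE 0.12), 0.12 (SE 0.12) and 0.02 (SE 0.25) and limma adjusted p-values of 0.834, 0.678 and 0.976.

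Cyp4f14, a leukotriene B4 hydroxylase, was at 5.16, 9.36 and 12.22 TPM in Trp53fl/fl tumors and at 18.52, 12.75 and 8.73 TPM in VP tumors. The tumors of each genotype spread widely and overlapped, with a log2 fold change of 0.54 (SE 0.35, 95% interval -0.27 to 1.36, limma adjusted p = 0.53). Cyp4f18, the leukotriene B4 hydroxylase of mouse neutrophils, was at 5.74, 7.17 and 8.53 TPM and at 8.72, 9.41 and 9.20 TPM. Every VP tumor lay above every Trp53fl/fl tumor, VP replicate 1 by a small margin. The log2 fold change of 0.33 passed neither the unadjusted nor the adjusted threshold (SE 0.16, limma unadjusted p = 0.0861, adjusted p = 0.448). Of the 5 neutrophil markers, 4 were higher in every VP tumor than in any Trp53fl/fl tumor, where 6.03% of all genes were. Among the 4 was S100a8, at 75.52 to 196.12 TPM in Trp53fl/fl tumors and at 316.10 to 614.49 TPM in VP tumors. Csf3r overlapped. None of the 5 passed the adjustment (smallest limma adjusted p = 0.0521, Retnlg), and their part in the Cyp4f18 values was not tested. Cyp4f18 lies on chromosome 8 and the other 8 Cyp4f genes lie on chromosome 17 between 32452723 and 32947402 (GENCODE M21, GRCm38). Cyp4f17 was at 2.26, 2.63 and 2.76 TPM and at 3.18, 3.73 and 3.44 TPM, without overlap, and the log2 fold change was 0.33 (limma unadjusted p = 0.0805, adjusted p = 0.442). Means in Trp53fl/fl and VP tumors were 5.86 and 6.91 TPM for Cyp4v3 and 1.04 and 1.25 TPM for Cyp4f39. Summed over the subfamily, Cyp4f transcripts came to 80.56, 95.23 and 88.59 TPM in Trp53fl/fl tumors and to 98.73, 105.34 and 92.84 TPM in VP tumors, with overlap.

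The 3 highest tumors for Cyp2d10 and for Cyp4f14 were Trp53fl/fl replicate 3 and VP replicates 1 and 2. The same held for Cyp4v3 (6.58, 7.09 and 7.52 TPM) and Cyp7b1 (1.51, 1.98 and 3.13 TPM). Cyp2d10 and Cyp4f14 were set beside the 6 mature colonocyte markers after the values were seen. The same 3 tumors were the highest for 2 of the 6 markers, Car4 and Aqp8. Their order differed between Cyp2d10, Cyp4f14, Car4 and Aqp8. How many of all genes tested have these 3 tumors as the highest was not counted, so no weight can be put on the match. Car4, a brush border carbonic anhydrase, was at 54.72, 21.69 and 103.94 TPM in Trp53fl/fl tumors and at 80.32, 110.91 and 31.98 TPM in VP tumors. Aqp8, a water channel of surface colonocytes, was at 10.97, 5.08 and 32.49 TPM and at 27.82, 20.01 and 9.72 TPM. The other 4 markers had other tumors among their 3 highest. Slc26a3, a chloride exchanger, was at 10.62, 4.86 and 15 TPM and at 10.55, 15.71 and 5.41 TPM. Guca2a, which encodes guanylin, was at 239.83, 178.04 and 261.03 TPM and at 254.76, 379.86 and 257.70 TPM. Ceacam20 ran from 19.34 to 35.43 TPM over the 6 tumors, and Car1, another carbonic anhydrase, was lower in every VP tumor (80.66 to 95.93 TPM) than in any Trp53fl/fl tumor (121.70 to 283.58 TPM). The part of colonocyte content in the P450 values was not tested.

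**Figure D5:**
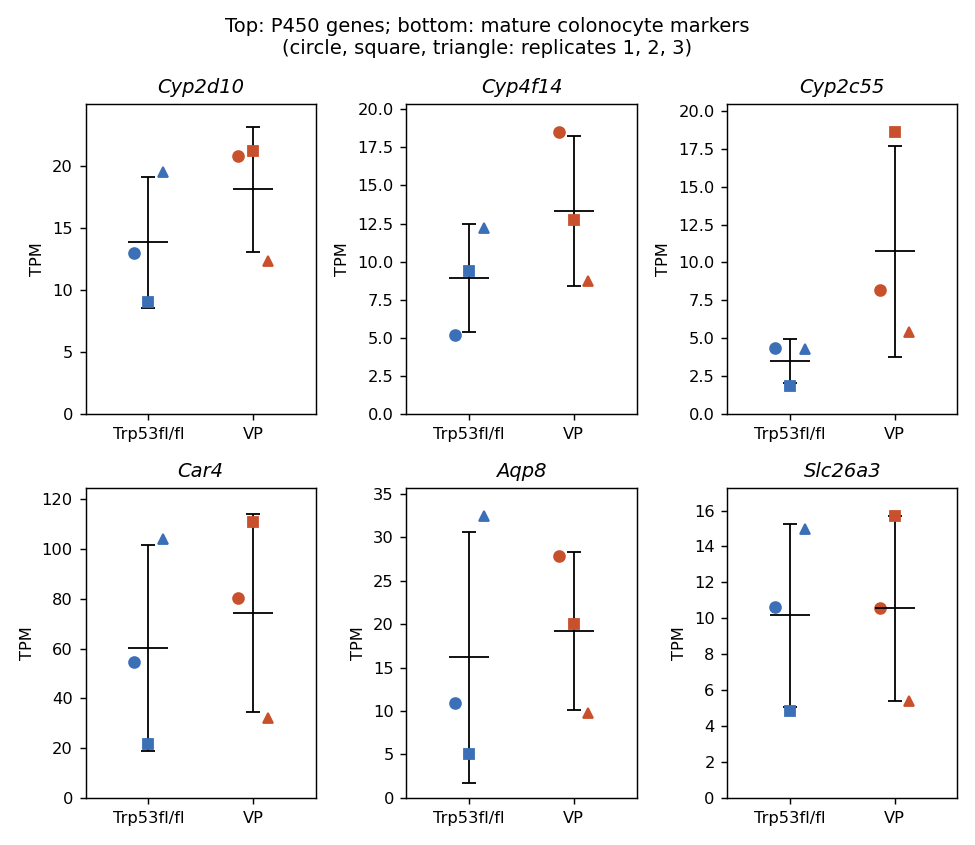
TPM of 3 P450 genes (top) and 3 mature colonocyte markers (bottom) in each tumor, with the replicate shown by the point's shape and the mean and SD (n = 3) per genotype as lines. Trp53fl/fl replicate 3 and VP replicates 1 and 2 are the highest tumors for Cyp2d10, Cyp4f14, Car4 and Aqp8. They are not the 3 highest for Slc26a3 or for Cyp2c55, where the 3 highest are the VP tumors.

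Enzymes of sterol and bile acid metabolism were 6 genes, of which 3 were tested. Cyp27a1, the mitochondrial sterol 27-hydroxylase, was the most abundant P450 gene of the set, at 39.01, 53.22 and 43.40 TPM in Trp53fl/fl tumors and at 46.99, 30.55 and 43.20 TPM in VP tumors. The genotypes overlapped, with a log2 fold change of -0.18 (SE 0.19, 95% interval -0.63 to 0.28, limma adjusted p = 0.713). Cyp39a1, which hydroxylates 24-hydroxycholesterol, was at 7.52, 8.83 and 9.15 TPM and at 7.41, 6.66 and 7.48 TPM. It was the 1 gene with all VP tumors below all Trp53fl/fl tumors, by a margin that 2 of the 3 VP tumors met only narrowly. Its log2 fold change of -0.21 passed neither the unadjusted nor the adjusted threshold (SE 0.14, limma unadjusted p = 0.169, adjusted p = 0.54). Cyp7b1, the oxysterol 7-alpha-hydroxylase, was at 0.91, 1.46 and 1.51 TPM and at 1.98, 3.13 and 1.42 TPM (log2 fold change 0.45, SE 0.25, limma adjusted p = 0.496). Cyp7a1, the rate-limiting enzyme of bile acid synthesis in liver, was at 0 TPM in all tumors, and Cyp8b1 reached at most 0.30 TPM.

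Steroid hormone synthesis was represented by 6 genes, of which Cyp21a1, the steroid 21-hydroxylase, was tested. It was at 8.29, 12.40 and 5.56 TPM in Trp53fl/fl tumors and at 2.20, 3.66 and 7.80 TPM in VP tumors. VP replicates 1 and 2 were the lowest of the 6 tumors, while VP replicate 3 lay among the Trp53fl/fl tumors. Its log2 fold change of -0.88 was the most negative of the 31 genes and did not pass the test (SE 0.41, 95% interval -1.84 to 0.09, limma unadjusted p = 0.0683, adjusted p = 0.426). It was -1.28 without VP replicate 3 (limma unadjusted p = 0.00898), -1.13 without Trp53fl/fl replicate 3 (limma unadjusted p = 0.0403) and -0.55 without VP replicate 1 (limma unadjusted p = 0.211). Cyp11a1, the mitochondrial enzyme that cleaves cholesterol, ran from 0.36 to 1.53 TPM below the filter. Cyp17a1 and Cyp19a1 reached at most 0.05 and 0.07 TPM, and Cyp11b1 and Cyp11b2 were at 0 TPM.

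Cyp26 enzymes break down retinoic acid. Cyp26b1 had means of 1.38 and 1.12 TPM in Trp53fl/fl and VP tumors with overlap, and Cyp26a1, a classical retinoic acid target, reached at most 0.38 TPM. Cyp20a1, an orphan P450 without an established substrate, was the steadiest of the abundant genes. It was at 19.88, 17.96 and 19.54 TPM in Trp53fl/fl tumors and at 18.62, 18.41 and 18.87 TPM in VP tumors, so that the highest tumor was 1.11 times the lowest. Its log2 fold change was -0.03 (SE 0.11, limma adjusted p = 0.907).

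The redox partners, heme synthesis enzymes and regulators of P450 genes were read from the same fit. Of 26 genes listed, 25 were in the table and 23 were tested. None changed at an adjusted p under 0.05 (limma). At an unadjusted p under 0.05, 2 of the 23 were higher in VP tumors, where 4.51% of all genes were. Lower at that p was 1 of the 23, where 8% of all genes were (limma). Alas1, the first enzyme of heme synthesis, was at 219.43, 190.16 and 197.52 TPM in Trp53fl/fl tumors and at 275.25, 292.34 and 283.62 TPM in VP tumors. The genotypes were well apart, and the log2 fold change of 0.49 missed the adjusted threshold (limma unadjusted p = 0.00169, adjusted p = 0.199). The next enzymes of the pathway that were tested had log2 fold changes of 0.02 (Urod), -0.27 (Cpox), 0.01 (Ppox) and -0.10 (Fech).

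Vdr, the vitamin D receptor, was at 14.65, 18.58 and 20.40 TPM in Trp53fl/fl tumors and at 23.67, 26.93 and 22.72 TPM in VP tumors (log2 fold change 0.44, limma unadjusted p = 0.0228, adjusted p = 0.341). Ahr, the aryl hydrocarbon receptor, was at 10.99, 12.07 and 9.81 TPM and at 9.15, 7.50 and 6.72 TPM (log2 fold change -0.45, limma unadjusted p = 0.024, adjusted p = 0.341). Neither receptor overlapped between genotypes. Por was at 77.09, 75.07 and 79.34 TPM and at 114.33, 82.79 and 87.73 TPM, also without overlap and mostly through VP replicate 1. Its log2 fold change was 0.28 (limma unadjusted p = 0.0805, adjusted p = 0.442). Nr1i2, the pregnane X receptor, and Nr1h4, the bile acid receptor, had log2 fold changes of 0.37 and 0.61 with overlap (limma adjusted p = 0.435 for each). Hnf4a, a regulator of gut and liver genes, was at means of 159 and 160.1 TPM.

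Near-identical paralogs can exchange reads, and how the quantification shared them is not given in the sources used here. Over stretches of 100 bases of the longest coding transcript, Cyp2s1, Cyp2c55, Cyp3a13, Cyp27a1, Cyp4f14 and Cyp4f18 shared 0% with any other gene. The shares were 19.8% for Cyp2c68, mostly with Cyp2c40, 14.8% for Cyp2d10, mostly with Cyp2d11, 9.86% for Cyp2d9, 9.8% for Cyp4f16, mostly with Cyp4f37, and 7.82% for Cyp2c65, with Cyp2c66. They were 5.87% for Cyp21a1, with Cyp21a2-ps, 5.77% for Cyp4v3 and 3.79% for Cyp2d12. The levels of these genes are uncertain by an amount that was not measured.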

How the data were processed

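Poly(A)-selected libraries from 6 tumor samples were sequenced from both ends. The authors deposited TPM per gene with 2 decimals, 1 column per sample, each column summing to a common total. Whether tumors were pooled within a sample is not stated in the sources used here. The submitters' processing notes name HISAT2, StringTie and mm9, without versions or roles, and the annotation is not given in the sources used here. Of the deposited gene IDs, 96.27% are in GENCODE M21 (GRCm38), which gave the coordinates, and 92 of the 93 P450 genes are among them. Promoters came from RefSeq on GRCm38.p6. TPM keep no counts, so no count test was made and the depth is unknown. Scaling to a fixed total makes each value depend on the other genes of its tumor, and HISAT2 and StringTie, where used as named, share reads between paralogs by rules not stated here.

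Genotypes were compared on log2(TPM + 1) in R 4.3.3, using limma 3.58.1 with trended empirical Bayes and a two-sided test. Benjamini-Hochberg adjustment ran over every gene that reached 1 TPM in 3 or more tumors. An exact permutation test of 3 against 3 cannot go below 0.1 and was not used. Tumors were grouped by their labels, and no column was left unassigned.

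Described in full were the 12 genes with the highest mean TPM, those with an unadjusted p under 0.05 and the 5 with the largest absolute log2 fold change. Other tested genes are given by means or ranges, and genes below the filter are named where a tumor reached 1 TPM. A few more were named for what they are known to do, after their values were seen. The family, the marker lists and the tests were chosen with earlier results of these data known. Alternatives were a pseudocount of 0.1, no filter, a stricter filter (mean TPM of 5 or more), median-of-ratios, quantile and epithelial-marker scaling, no trend, array quality weights, the replicate block and each tumor left out.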

Additional observations from a re-analysis of the deposited data

How the results depend on the processing

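Cyp2s1, Cyp2c55 and Cyp3a13 stayed higher in VP tumors under every alternative run. One alternative made a P450 call: with array quality weights 1 P450 gene passed the adjustment, Cyp2s1, at a log2 fold change of 0.72 (its limma adjusted p = 0.0481, and 0.22 to 0.664 under the other alternatives), and all genes called rose from 25 to 323. The weights were 7.29 for Trp53fl/fl replicate 1 and 0.444 to 1.04 elsewhere, and their estimation stopped short of convergence. All genes called were 7 without a filter, with 27871 genes tested in place of 15117, and 44 with centring on epithelial markers, and 6 to 28 with 1 tumor left out. The cause of the other changes was not tested. P450 genes higher at an unadjusted p under 0.05 were 5 with median-of-ratios rescaling, quantile normalization or no trend (6.95%, 6.04% and 4.49% of all genes), 1 with epithelial centring (1.9%), 11 with array weights (9.82%) and 2 to 6 with 1 tumor left out (3.07% to 5.54%). Those lower were 2 with epithelial centring (24.5% of all genes), 1 with array weights (18%) and 0 to 1 with 1 tumor left out (4.41% to 10.9%). The median log2 fold change of the P450 genes was -0.034 with epithelial centring, 0.37 with array weights and -0.0075 to 0.21 with 1 tumor left out. Partner and regulator genes higher at that p were 5 with median-of-ratios (6.95% of all genes), 4 with quantile (6.04%), 1 with epithelial centring (1.9%) and 5 with weights (9.82%). Those lower were 2 without a filter (5.55% of all genes), 5 with epithelial centring (24.5%) and 4 with weights (18%). With 1 tumor left out, those higher were 1 to 3 (3.07% to 5.54%) and those lower 0 to 1 (4.41% to 10.9%). The Cyp2c, Cyp2d and Cyp4f sums differed by 5.70 to 11.1, -2.72 to 12.2 and 7.06 to 14.4 TPM with 1 tumor left out. Median-of-ratios rescaling moved the share of all genes above 0 from 39.2% to 50.1%.

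Of 451 values of single genes, 414 kept their direction and their side of the threshold. The genes that changed direction had log2 fold changes within 0.25 of 0 in the main fit, up to 0.24 for Cyp2d9. With epithelial centring they were Cyp2d34 (-0.13), Cyp4f16 (-0.12), Cyp4f13 (-0.057), Cyp4f40 (-0.16), Cyp2w1 (-0.15), Cyp2d22 (-0.034) and Cyp4f39 (-0.0065). With median-of-ratios rescaling they were Cyp20a1 (0.040) and Cyp2d26 (0.046), with quantile normalization Cyp20a1 (0.041) and Cyp2d26 (0.069), and with array weights Cyp2d26 (0.086), Cyp26b1 (0.056) and Cyp2d13 (0.19). With 1 tumor left out the ranges were -0.30 to 0.0068 for Cyp27a1, -0.18 to 0.34 for Cyp2d34, -0.0062 to 0.12 for Cyp4f16, -0.18 to 0.22 for Cyp4f40, -0.12 to 0.29 for Cyp2w1, -0.20 to 0.21 for Cyp2d26, -0.0036 to 0.54 for Cyp2d9, -0.24 to 0.37 for Cyp2d22, -0.10 to 0.58 for Cyp2d12, -0.27 to 0.054 for Cyp26b1, -0.26 to 0.077 for Cyp2r1, -0.049 to 0.31 for Cyp4f39 and -0.31 to 0.085 for Cyp2d13.

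The labels do not say whether the replicate numbers pair the tumors, and the main test did not pair them. Deviations of same-numbered tumors from their genotype means correlated at 0.0185, -0.052 and 0.0175 over genes. Those of differently numbered tumors correlated at -0.108 to 0.0952. With 3 tumors per genotype, these values cannot decide whether the tumors were paired. With the replicate block, 10 genes in all were called, the smallest adjusted p of a P450 gene was 0.385 (limma), and Cyp2c55 and Cyp2s1 remained at an unadjusted p under 0.05.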
